A study of Mus musculus with 4 samples.

Results

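The genes described here encode the nuclear part of the mitochondrial respiratory chain and ATP synthase. They were taken by name from a RefSeq table of protein-coding genes of the mouse assembly GRCm38.p6 on chromosomes 1 to 19 and X: every symbol that starts with Nduf, Uqcr, Cox4, Cox5, Cox6, Cox7, Cox8 or Atp5, and the Sdha, Sdhb, Sdhc and Sdhd genes. This gave 96 of 21631 genes, and the rule goes by names alone. Accessible chromatin had been mapped by ATAC-seq (sequencing of the fragments that a transposase frees from open DNA) in mouse fetal liver cells at embryonic day 14.5. Of the 4 libraries, 2 came from wild-type (WT) and 2 from hemogen knockout (hemogen KO) mice. Hemogen, the product of Hemgn, is found in the nuclei of blood-forming cells. The labels name no allele or strain for the knockout. They also leave unstated if the replicates are different embryos, so their spread may be technical. The study set out to compare accessible DNA in the 2 genotypes.

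Respiratory complex I takes electrons from NADH and complex II takes them from succinate. Complex III passes them to cytochrome c, complex IV passes them to oxygen, and complex V, the ATP synthase, uses the proton gradient that results. Most subunits are encoded in the nucleus and built together with a few subunits from mitochondrial DNA. Several complex IV subunits exist as a widely expressed form and a form restricted to muscle, lung or testis. Red cell precursors, the most abundant cells of the fetal liver at this age, need mitochondria for heme synthesis and discard them at the end of maturation.

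The deposited lists held 34181 to 47858 peaks on the chromosomes. WT replicate 1 and hemogen KO replicate 2 had the longer lists (47858 and 43018 peaks), and WT replicate 2 and hemogen KO replicate 1 the shorter ones (34181 and 35426). List length therefore did not follow genotype (WT 41020 ± 9671, KO 39222 ± 5368, SD, n = 2 libraries per genotype, p = 1, exact two-sided permutation test of 6 relabelings). A boundary peak is a peak whose summit lies no more than 1 kb from either boundary of a gene, and the strongest such peak stands for the gene. Its height is given as its percentile among the peaks of the same list, ranked by the authors' fold enrichment, which cannot be compared between lists. The targeted gene kept its boundary peak in every library, with Hemgn at percentiles 33.0, 27.9, 35.5 and 34.3, so a peak list does not check the knockout label. Of 8 erythroid marker genes, 6 had a boundary peak in all 4 libraries, beside 55.8% of all protein-coding genes. Gata1 had none and Epor missed hemogen KO replicate 1. The peaks of the 6 were not high, with median percentiles of 46.6 and 31.4 in WT and 42.3 and 43.2 in KO. Of 4 hepatocyte markers only Hnf4a had one in all 4 libraries, Alb had one in 3, and Afp and Ttr had none, while none of 3 macrophage or 3 granulocyte markers had one in all 4. Of 3 megakaryocyte markers Itga2b and Gp9 had one in all 4, and of 3 endothelial markers Kdr did. Of 3 neuron markers Snap25 had one in 3 libraries, and Neurod1 and Rbfox3 had none.

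Boundary peaks stood at 86 of the 96 respiratory chain genes (89.6%) in all 4 libraries. Over all protein-coding genes the share was 12062 of 21631, or 55.8%. Counted library by library, 87, 86, 87 and 87 of the 96 genes had a boundary peak in WT replicates 1 and 2 and hemogen KO replicates 1 and 2. All values below are in this order of libraries. No respiratory chain gene had its peak in both libraries of one genotype and neither of the other, for which the shares over all genes were 0.305% (WT) and 0.296% (KO). Cox4i2, a complex IV isoform of lung, was the single gene with a peak in some libraries: it (1.04% of the set, against 8.02% of all genes) was at percentiles 22.3, 31.8 and 38.3 in WT replicate 1 and hemogen KO replicates 1 and 2, and absent in WT replicate 2, the shortest list. A further 9 genes (9.38%, against 36.2% of all genes) had no boundary peak in any library.

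The peaks were high in their lists. The median percentile over the respiratory chain genes with a peak was 91.9, 90.4, 89.6 and 91.2, beside 83.8, 79.5, 80.2 and 82.8 over all genes with a boundary peak. Of the 86 genes with a peak in all libraries, 72 (83.7%) were above the 75th percentile in every one, against 57.9% of the 12062 genes. Above the 90th percentile in every library were 35 (40.7%, against 23.2%). The genes differed little between libraries: the range of a gene's 4 percentiles had a median of 4.42 points, beside 6.72 over all genes. Ranked only among the 12062 genes with a peak in all libraries, the median range was 8.13 points, beside 8.61, so the respiratory chain genes were hardly steadier than others on that scale.

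**Figure D1:**
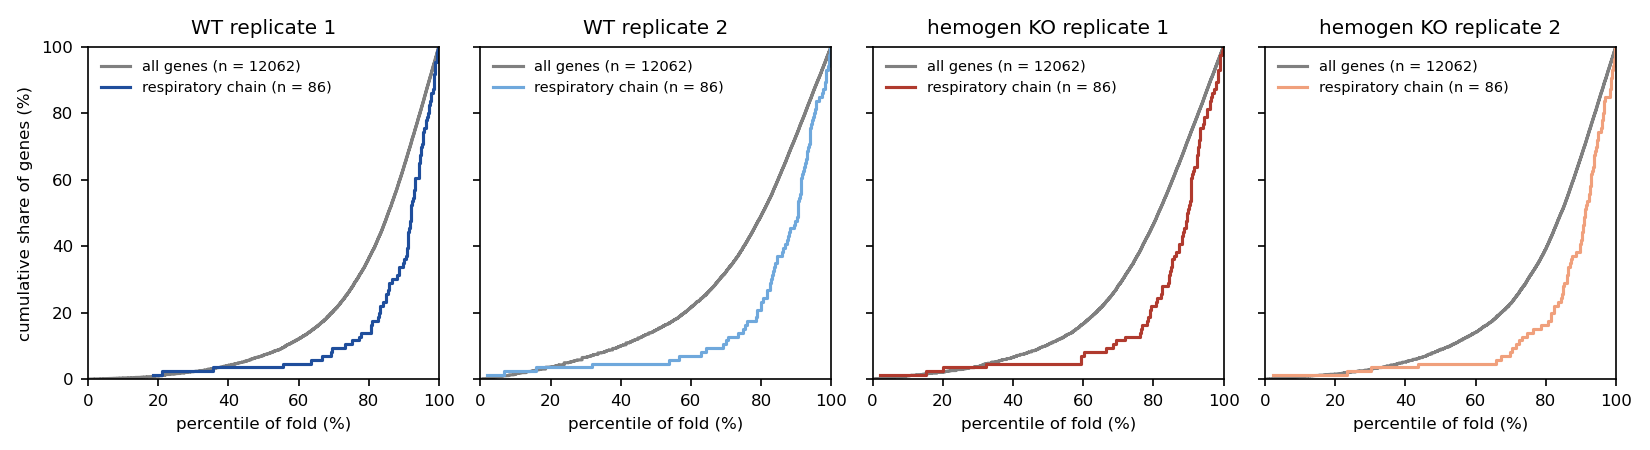
Cumulative share of genes (vertical axis, %) up to each percentile of fold within the list (horizontal axis, %), for the 86 respiratory chain genes (coloured) and all 12062 genes (grey) with a boundary peak in all 4 libraries, with 1 panel per library. In every panel the coloured curve lies to the right of the grey one over most of the range, and 83.7% of respiratory chain genes against 57.9% of all genes were above 75 in every library. The lines meet at the low end.

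The summits lay close to the starts of the genes. In each library 72 respiratory chain genes with a known strand had their strongest boundary peak at the start and 0 had it at the other end, while the strand of 14 or 15 more was not in the tables. The median distance from summit to boundary was 58, 63, 71 and 69 bp, beside 143, 138, 150 and 142 bp over all genes. Measured from the start given in a RefSeq promoter table (GRCm38.p6), which holds 78 of the 96 genes, the median summit lay 25.5, 37, 51 and 40.5 bp after the start. The distance was at most 100 bp in 53 to 58 of the 74 genes with a peak there.

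Promoter sequences are shown for 8 genes that cover the range of peak heights and the motifs found. Ndufb2 (chr6:39592365-39592584, plus strand) and Ndufa12 (chr10:94198835-94199054, plus strand) had peaks above the 99th percentile in every library. Sdhb (chr4:140961071-140961290, plus strand) had the lowest peak of complex II, and Uqcr11 (chr10:80406802-80407021, minus strand) had the widest gap between the genotypes in percentile among all peaks. Cox6a1 (chr5:115348939-115349158, minus strand) and Atp5g2 (chr15:102671028-102671247, minus strand) hold the letters of an NRF1 motif. Cox7b (chrX:106015500-106015719, plus strand) had the lowest peak of complex IV, and Cox7a1 (chr7:30183971-30184190, plus strand) is a muscle isoform. Each stretch has 220 bases, from 200 before the start of the gene to 20 after it, 5′ to 3′ on the strand of the gene, from RefSeq GRCm38.p6. Capitals mark the letters of a motif of NRF1, ETS/GABP, SP/KLF, NFY or GATA on either strand.
Ndufb2: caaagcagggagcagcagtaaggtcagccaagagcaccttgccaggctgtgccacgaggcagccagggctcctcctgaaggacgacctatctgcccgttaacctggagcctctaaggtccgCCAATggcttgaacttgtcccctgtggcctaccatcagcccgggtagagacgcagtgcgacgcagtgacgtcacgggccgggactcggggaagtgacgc
Ndufa12: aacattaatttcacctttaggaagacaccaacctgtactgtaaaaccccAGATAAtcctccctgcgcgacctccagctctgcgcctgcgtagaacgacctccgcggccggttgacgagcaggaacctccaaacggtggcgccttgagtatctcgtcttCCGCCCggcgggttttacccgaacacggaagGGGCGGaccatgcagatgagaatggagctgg
Sdhb: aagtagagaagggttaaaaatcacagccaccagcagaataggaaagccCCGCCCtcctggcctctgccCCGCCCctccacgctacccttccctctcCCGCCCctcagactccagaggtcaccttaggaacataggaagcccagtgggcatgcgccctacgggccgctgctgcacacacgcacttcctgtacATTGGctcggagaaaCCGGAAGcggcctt
Uqcr11: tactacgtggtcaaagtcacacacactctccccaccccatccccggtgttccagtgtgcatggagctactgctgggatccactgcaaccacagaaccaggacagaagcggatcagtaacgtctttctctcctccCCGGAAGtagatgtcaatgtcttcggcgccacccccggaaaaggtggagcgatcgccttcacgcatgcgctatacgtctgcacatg
Cox6a1: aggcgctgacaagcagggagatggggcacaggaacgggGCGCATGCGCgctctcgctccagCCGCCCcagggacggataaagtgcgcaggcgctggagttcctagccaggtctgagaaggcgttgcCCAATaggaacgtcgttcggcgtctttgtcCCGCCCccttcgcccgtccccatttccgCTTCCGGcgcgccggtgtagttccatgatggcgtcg
Cox7b: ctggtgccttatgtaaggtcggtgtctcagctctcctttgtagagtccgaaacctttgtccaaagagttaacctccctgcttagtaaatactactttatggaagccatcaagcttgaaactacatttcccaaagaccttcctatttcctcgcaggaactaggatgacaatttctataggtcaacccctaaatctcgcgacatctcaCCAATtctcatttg
Cox7a1: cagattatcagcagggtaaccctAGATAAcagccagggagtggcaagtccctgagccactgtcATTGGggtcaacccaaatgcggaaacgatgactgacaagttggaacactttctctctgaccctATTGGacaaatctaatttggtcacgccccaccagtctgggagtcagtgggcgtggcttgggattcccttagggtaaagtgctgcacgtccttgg
Atp5g2: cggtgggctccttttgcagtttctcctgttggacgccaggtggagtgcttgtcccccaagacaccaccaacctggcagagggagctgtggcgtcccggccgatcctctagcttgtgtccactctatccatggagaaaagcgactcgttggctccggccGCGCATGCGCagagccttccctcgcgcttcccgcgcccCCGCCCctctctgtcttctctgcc

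The motifs were searched on both strands of 300 bases, from 250 before to 50 after each start, in 83 entries of 78 respiratory chain genes. NRF1 and GABP are the classic activators of respiratory chain promoters, and YY1 is a further regulator of mitochondrial genes. The NRF1 letters, the run of 10 capitals in Cox6a1 and Atp5g2 above, were in 7 of the 83 entries (8.43%), beside 2.07% of the 11975 entries of protein-coding genes with a peak in all libraries and 0.971% of all 32851 entries. The ETS/GABP letters CCGGAAG were in 19 entries (22.9%, beside 17.3% and 8.86%). The YY1 letters, shown in capitals below for Ndufs4 and Ndufs7, were in 6 entries (7.23%, beside 1.96% and 0.852%). At least 1 of these motifs was in 28 entries (33.7%, beside 20.4% and 10.3%), so most entries held none of them in these exact letters. Entries with both ETS/GABP and YY1 letters numbered 2, with no overlap of letters. In the 77 respiratory chain entries of genes with a peak in all libraries, the NRF1, ETS/GABP and YY1 shares were 9.09%, 24.7% and 7.79%.

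The 7 genes with NRF1 letters were Ndufa11, Ndufaf4, Ndufaf5, Uqcrc1, Cox6a1, Atp5g2 and Atp5k. Counting the start as 0, the motif began at -162 in Cox6a1, -113 in Ndufaf4, -60 in Ndufa11, -50 in Atp5k and -42 in Atp5g2, and after the start, at 16 and 30, in Ndufaf5 and Uqcrc1. YY1 letters began after the start in 5 of 6 genes (Ndufa9, Ndufs4, Ndufs6, Ndufs7 and Ndufaf8, at 10 to 35) and at -88 in Atp5j. GC-box letters of SP/KLF factors, GGGCGG, were in 36 entries (43.4%), beside 64.6% of the entries with a peak in all libraries and 35.7% of all entries. The GC content of the respiratory chain entries had a median of 58.3%, beside 61.3% and 52.7% in the same sets, and its part in the motif shares was not tested. The NFY letters CCAAT were in 42.2% (beside 37.8% and 37.4%) and the GATA letters AGATAA, bound by the erythroid factor GATA1, in 7.23% (beside 6.07% and 11.2%). Over the 77 respiratory chain entries with a peak in all libraries, the SP/KLF, NFY and GATA shares were 42.9%, 42.9% and 6.49%. ERR letters, TCAAGGTCA, were in the entries of Sdhd and Atp5g3 only (2.41%, beside 0.225% and 0.423%). Atp5g3 has no boundary peak, but has one within 128 bp of its promoter-table start, at percentiles 92.5, 87.8, 86.7 and 93.0. Its entry is therefore not among the 77 with a boundary peak in all libraries, where the ERR share was 1.3%. A match of letters describes the sequence and does not show binding.

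The YY1 letters just after the start are shown within 30 bases, in the gene's direction, for Ndufs4 (chr13:114388045-114388074, minus strand) and Ndufs7 (chr10:80249463-80249492, plus strand), where the capitals mark them.
Ndufs4: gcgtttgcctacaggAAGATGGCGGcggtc
Ndufs7: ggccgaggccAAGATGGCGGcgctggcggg

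**Figure D2:**
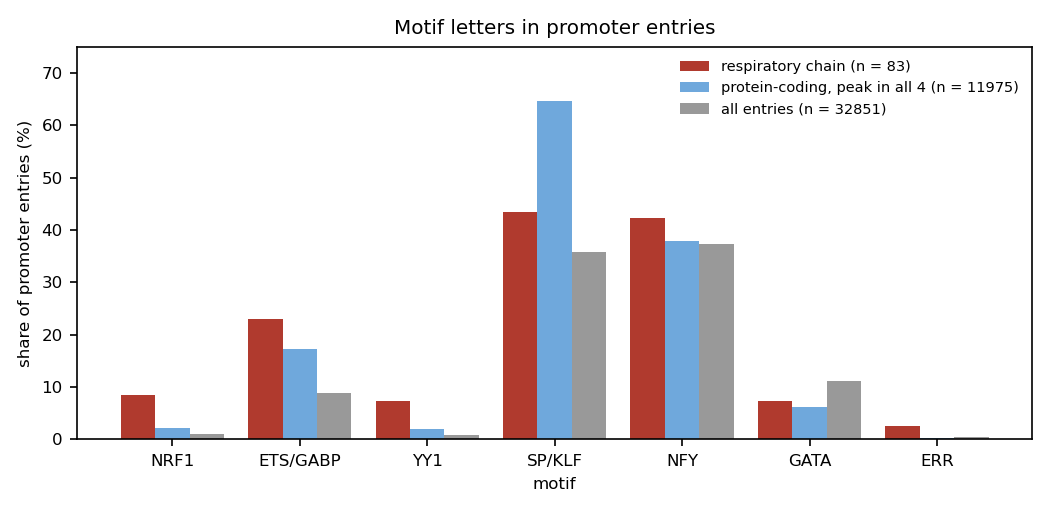
Share of RefSeq promoter entries of 300 bases (vertical axis, %) that hold each motif (horizontal axis), for respiratory chain genes, for protein-coding genes with a boundary peak in all 4 libraries, and for all entries, as bars. NRF1, ETS/GABP and YY1 have their tallest bar in the respiratory chain (8.43%, 22.9% and 7.23%), whereas SP/KLF has a lower bar there (43.4%) than in genes with a peak (64.6%).

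Complex I, the NADH dehydrogenase, had a boundary peak at each of its 7 core and 30 accessory genes of the lists used here in all libraries. Ndufs3, a core subunit of the matrix arm, was the highest of the core at 95.4, 91.8, 95.3 and 96.3. The NADH-binding subunit gene Ndufv1 was at 90.1, 88.1, 87.3 and 87.3, and the iron-sulfur subunit gene Ndufs1 at 89.7, 81.6, 81.0 and 86.2.

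Accessory complex I genes included the highest mean percentile of the whole set. Ndufb2, of the membrane arm, was at 99.5, 99.6, 99.7 and 99.8 (chr6:39592306-39593213 in WT replicate 1), and Ndufa12 at 99.3, 99.1, 99.4 and 99.6. Values this close to 100 have little room to differ between libraries. Ndufb10 was the lowest accessory gene at 63.4, 53.8, 59.5 and 65.9. All 8 genes of complex I assembly factors had a peak in all libraries, from Ndufaf3 at 75.1, 69.9, 68.6 and 72.4 to Ndufaf6 at 99.8, 99.5, 99 and 99.7.

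Complex II, succinate dehydrogenase, is the one complex with no mitochondrially encoded subunit, and its 4 genes all had peaks. Sdha, the flavoprotein that oxidises succinate, was at 99.5, 99.3, 98.5 and 99.5. Sdhb, the iron-sulfur subunit, was lower at 85.9, 82.4, 85.3 and 85.1. The membrane anchor genes lay between them, Sdhc at 96.2, 96.5, 93.0 and 93.6 and Sdhd at 95, 93.8, 92.8 and 93.0. In both anchor genes the WT values were above the KO values, and in Sdha and Sdhb the genotypes overlapped.

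All 8 complex III genes of the cytochrome bc1 complex had peaks in all libraries. Uqcrb, a subunit that binds ubiquinone, was at 98.9, 99.2, 99.1 and 99.1. Uqcrfs1, the Rieske iron-sulfur protein, was at 97.1, 97.4, 96.0 and 98.3. Uqcrh, the hinge protein, was the lowest at 69.3, 56.7, 60.3 and 67.3, on a peak of 2066 to 2235 bp. Its values were higher in the longer list of each genotype.

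Of 12 widely expressed complex IV genes, 10 had a boundary peak in every library, and Cox5a and Cox7a2 had none. Cox7c was the highest at 96.6, 97.6, 99.1 and 98.2, and Cox7b the lowest at 55.5, 31.9, 32.4 and 43.6, with narrow peaks of 516, 408, 344 and 523 bp. Both absences followed the gene table. Cox5a, which with Cox4i1 forms the first assembly module of the oxidase, had a peak 4.06 kb inside the gene at 96.8, 94.3, 96.5 and 96.6, within 155 bp of the start in the promoter table. Cox7a2 had one 4.54 to 4.57 kb from the nearest boundary at 96.6, 95.6, 96.3 and 96.7, within 68 bp of that start. At that start, these genes had peaks as high as the higher ones of complex IV.

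Complex V had boundary peaks at 16 of 17 genes. Atp5mpl, a small membrane subunit, was the highest at 98.4, 95.6, 97.3 and 98.5, and the catalytic-head genes Atp5a1 and Atp5b were at 96.3, 94.3, 95.2 and 96.1 and at 80.7, 73.4, 78.3 and 80.5. Of the 3 genes for the c-ring, Atp5g1 and Atp5g2 had boundary peaks, at 85.7, 84.5, 80.6 and 84.6 and at 93.3, 90.2, 91.6 and 90. Atp5g3 had none at its boundaries, but one at 92.5, 87.8, 86.7 and 93.0 within 128 bp of the promoter-table start. Atp5d, the delta subunit of the ATP synthase, was the lowest at 35.6, 6.64, 20 and 23.3. It too had a stronger peak inside the gene, within 105 bp of the promoter-table start, at 65.9, 61.2, 65.6 and 69.8. With promoter-table starts counted beside the boundaries, 89 of the 96 genes had a peak in all 4 libraries.

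**Figure D3:**
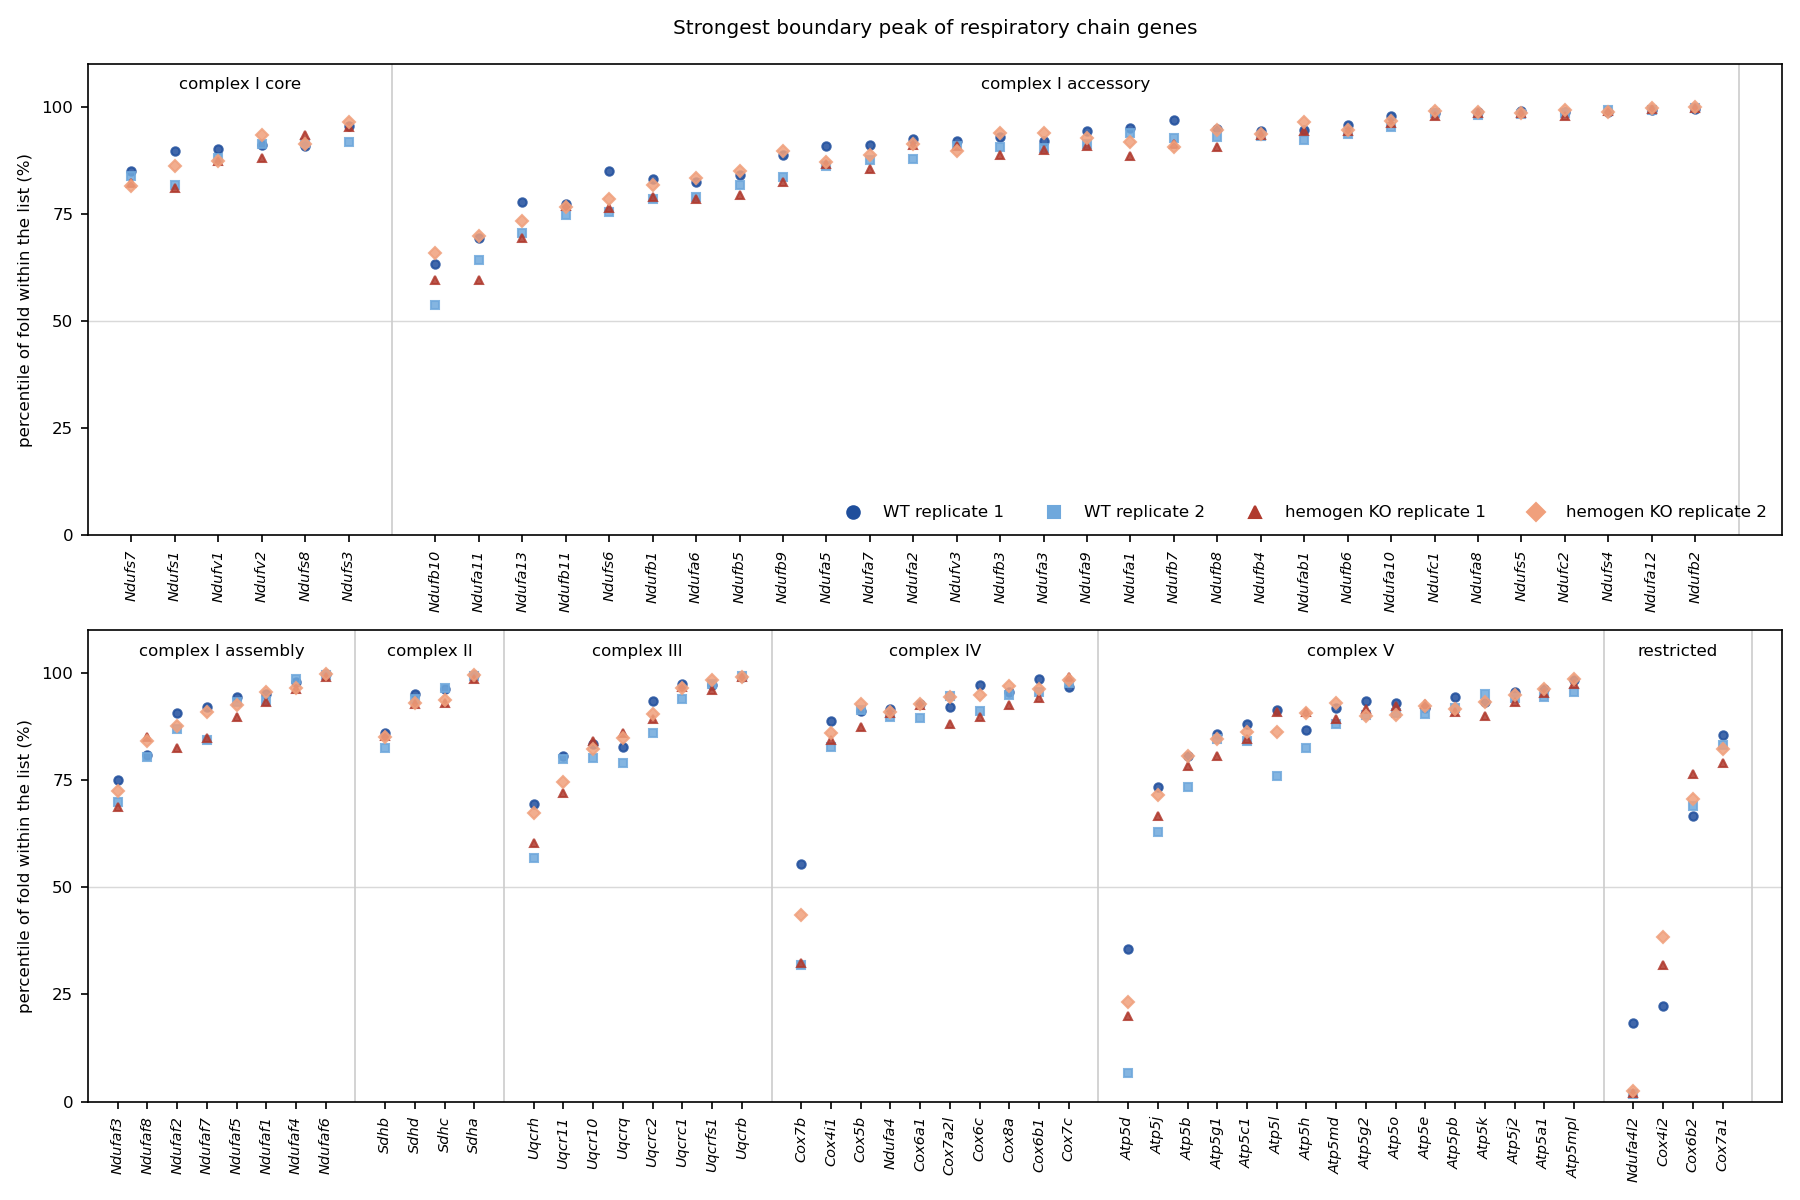
Percentile of fold within the list (vertical axis, %) of the strongest boundary peak of respiratory chain genes with a peak in at least 1 library (horizontal axis, by complex and ordered by mean), with 1 symbol per library (restricted: tissue-restricted isoforms). Most genes lie above 75 with the 4 symbols close together, and Cox7b, Atp5d, Ndufa4l2 and Cox4i2 have all their symbols below 60.

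The tissue-restricted isoforms differed from the other respiratory chain genes. Of 8, 3 had a boundary peak in all libraries, 4 had none and Cox4i2 had one in 3. Over all genes 55.8% had one in all libraries and 36.2% had none, and 8 genes are too few to compare with these shares. No peak was found in or within 1 kb of Cox6a2 and Cox8b, the heart and skeletal muscle forms, or of Cox7b2 and Cox8c, the testis forms. Their widely expressed counterparts Cox6a1 and Cox8a had mean percentiles of 91.8 and 94.9 over the 4 libraries, and Cox7b of 40.9. Cox4i2 had a mean of 30.8 over its 3 libraries, and Cox4i1 one of 85.4. Ndufa4l2, a paralog of Ndufa4 induced by low oxygen, was at 18.4, 1.84, 1.98 and 2.43, on different peaks in different libraries, shared with Shmt2 or Stac3. A stronger peak 3.73 to 3.79 kb inside the Ndufa4l2 gene was at 64.8, 53, 55.4 and 61.5. Ndufa4 itself had a mean of 90.7. Cox6b2, the testis form of Cox6b1, had a mean of 70.6 on a peak shared with Fam71e2, against 96.1 for Cox6b1.

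The exception among the muscle forms was Cox7a1, with 85.4, 83.2, 79.0 and 82.3 on a peak of 672 to 714 bp (chr7:30183849-30184520 in WT replicate 1). That peak was at the boundary of no other protein-coding gene. Of 4 genes of contractile or energy metabolism in muscle, Ckm alone had a boundary peak, at 88.9, 75.1, 75.5 and 82.1, and Myh6, Myh7 and Actc1 had none in any library. The remaining genes without a peak in any library, Ndufb4b and Ndufb4c, are additional copies of Ndufb4. Ndufb4 itself was at 94.4, 93.2, 93.4 and 93.6, and values at near-identical copies are uncertain, since reads may fit several of them.

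Many respiratory chain genes shared their peak with a neighbour. For 41 of the 86 genes (47.7%) the strongest boundary peak was also within 1 kb of another protein-coding gene in at least 1 library, against 25% of all genes with a peak in all libraries. Of the 72 genes with a known strand, sharing a peak or not, 26 (36.1%) shared theirs head to head with a neighbour. The share was 17.2% of all genes with a strand and a peak in all libraries. Among the 41, a strand was missing for 11, and 4 had another arrangement. Atp5j shares its peak with Gabpa, the gene of the DNA-binding subunit of GABP. A few of the 41 have a partner with a role in the mitochondrion, picked here after the pairs were seen: Ndufs6 with Mrpl36 and Ndufb5 with Mrpl47, both genes of mitochondrial ribosomal proteins, and Sdhd with Timm8b, a chaperone of protein import. No peak was shared by a pair of respiratory chain genes. A shared peak gives no separate value for each gene.

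Peak width was near that of other genes, with medians of 1059, 1002, 1006 and 1068 bp beside 1020, 987, 991 and 1047 bp. Width and height went in opposite directions among the respiratory chain genes. Spearman's rho across genes was -0.347, -0.389, -0.399 and -0.40 (86 or 87 genes, which share a library and are not replicates), whereas over all genes it was 0.182, 0.166, 0.0951 and 0.144. The 38 genes with a mean width under 1000 bp had a median percentile of 94.3, beside 83.4 over all genes of that width. At 1500 bp and over there were 6 genes (Ndufa11, Ndufa13, Ndufaf3, Uqcrh, Atp5j and Cox6b2) with a median of 69.6, beside 72.4 over all genes of that width. Each of these 6 peaks was shared with another gene.

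**Figure D4:**
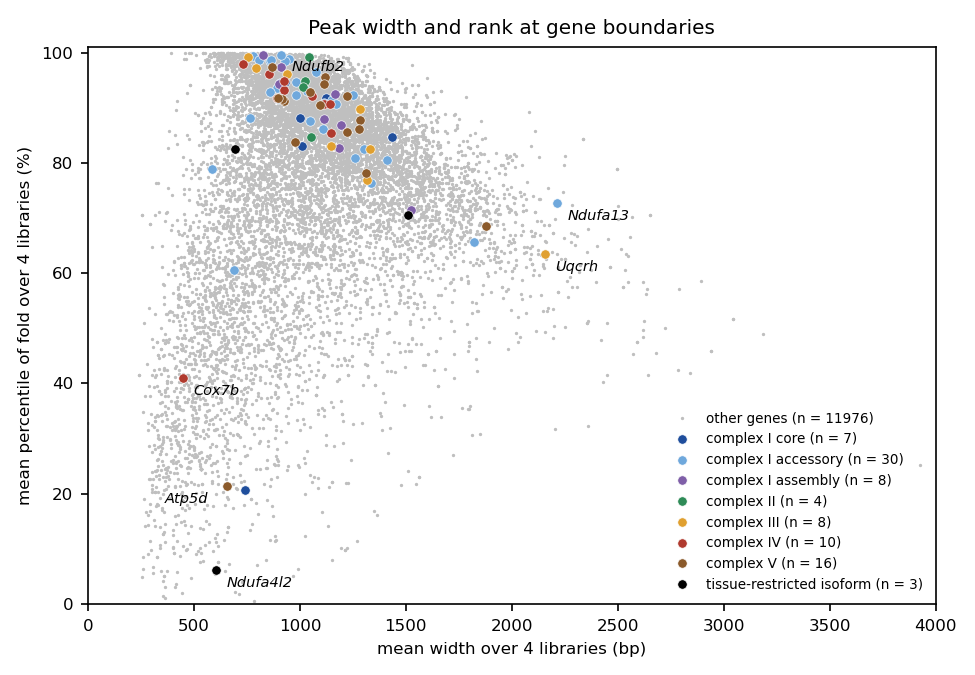
Mean percentile of fold (vertical axis, %) against mean width (horizontal axis, bp) of the strongest boundary peak over 4 libraries, for the 86 respiratory chain genes (coloured by complex) and the other genes (grey) with a peak in all libraries. Narrow respiratory chain peaks crowd at the top, the 6 widest lie between 63.4 and 72.7, and Cox7b, Atp5d and Ndufa4l2 lie below 50.

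Between the genotypes the ranks of most respiratory chain genes overlapped. Both KO libraries lay above both WT libraries in 8 of 86 genes (9.3%, against a background of 12.6% over all genes) and below them in 13 (15.1%, against 11.8%). Both shares were within a few points of the background, so the counts are no result about respiratory chain genes. The median difference, KO minus WT, was -0.302 points, beside 0.039 over all genes. With 2 libraries against 2 a gene without overlap has p = 0.33 by the exact permutation test, the smallest p possible, and no single gene can pass a threshold of 0.05. In WT the longer list gave the higher percentile in 73 of 86 genes (84.9%, against 88.1% of all genes). In KO it did so in 65 genes (75.6%, against 75%). When each gene was ranked only among genes present in all 4 libraries, these counts were 36 and 44. On that scale 12 genes were higher in KO and 19 lower (14% and 22.1%, against 18.4% and 21.7%), and 14 of the 21 genes kept their call: 5 higher and 9 lower. The counts also moved with single libraries. Without WT replicate 1, 40 of 86 genes were higher in KO (background 57.1%), and without WT replicate 2, 53 of 87 were lower (58.3%).

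Uqcr11, a small subunit of complex III, had the widest gap in percentile among all peaks: 80.5 and 79.9 in WT and 72.0 and 74.6 in KO. The KO values were lower by 6.87 points on average (80.2 ± 0.451 and 73.3 ± 1.83, SD, n = 2 each, exact permutation p = 0.33). Its promoter, shown above, holds ETS/GABP letters, and its peak belongs to no other gene of the table. Ranked among genes present in all libraries, the gap was wider in Atp5h (53.3 and 54.4 in WT, 74.8 and 68.9 in KO) and Ndufa1 than in Uqcr11 (37.4 and 48.9, 31.3 and 29.5). Atp5h, the d subunit of the ATP synthase stalk, went the other way with 86.7 and 82.5 in WT and 90.8 and 90.7 in KO. Its difference was 6.18 points (84.6 ± 2.99 and 90.8 ± 0.139, SD, n = 2 each, exact permutation p = 0.33), on a peak shared head to head with Kctd2, and was 4.06 points without WT replicate 2. The Atp5h peak was also narrower in both KO libraries (1113 and 1231 bp) than in both WT libraries (1294 and 1488 bp).

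Next in order of gap, among genes whose genotypes did not overlap on either scale, were Sdhc, Ndufa1, Uqcrq, Ndufb7, Ndufaf4, Cox7a1, Ndufaf5 and Sdhd. Uqcrq, a complex III subunit, was higher in KO (82.8 and 78.9 in WT, 85.9 and 84.8 in KO). The rest were lower in KO. Ndufa1, an accessory subunit on the X chromosome, was at 95 and 93.8 in WT and 88.5 and 91.8 in KO. Ndufb7, of the membrane arm, was at 96.8 and 92.6 in WT and 91.3 and 90.5 in KO. Ndufaf4 and Ndufaf5, assembly factors, were at 97.8 and 98.5 against 96.3 and 96.5, and at 94.4 and 93.2 against 89.6 and 92.4. These differences were 1.53 to 4.51 points in size, beside a median range over 4 libraries of 4.42 points in respiratory chain genes. Single libraries moved them: without WT replicate 1 Ndufb7 differed by -1.73 and Sdhd by -0.927 points, and without WT replicate 2 Uqcrq differed by 2.57 and Ndufb7 by -5.95. Without hemogen KO replicate 1 Ndufa1, Cox7a1 and Ndufaf5 differed by -2.63, -2.07 and -1.38, and without hemogen KO replicate 2 Ndufaf5 differed by -4.18. Cox7a1, Ndufaf5 and Sdhd had less than 1 point between the nearest WT and KO library. Ranked by the authors' q instead of fold, the genotypes overlapped in Uqcr11, Ndufa1, Ndufb7, Cox7a1, Ndufaf5 and Sdhd.

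**Figure D5:**
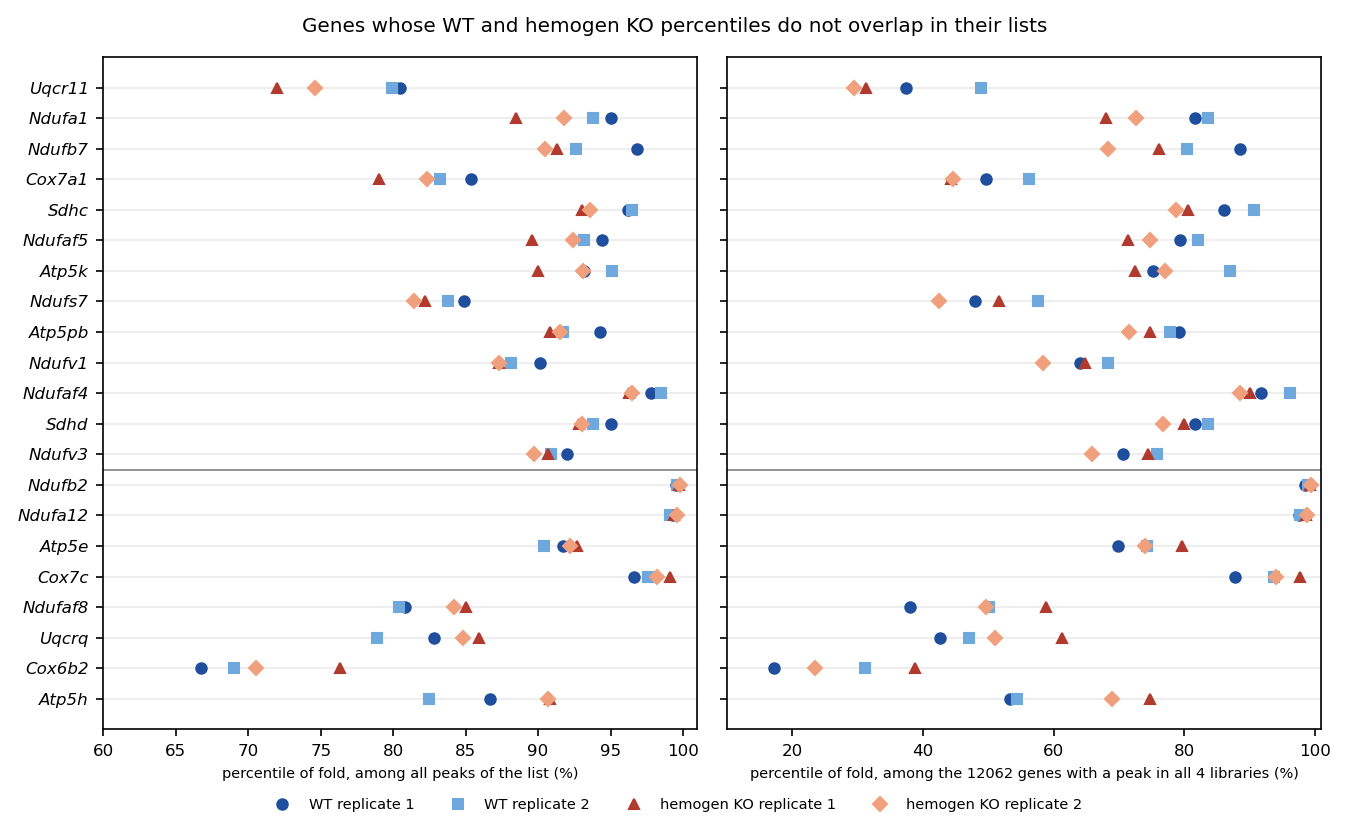
Percentile of fold (horizontal axis, %) of the 21 genes whose WT and hemogen KO libraries do not overlap in percentile among all peaks (left; 13 lower in KO above the line, 8 higher in KO below it), and of the same genes ranked among the 12062 genes with a peak in all libraries (right), with 1 symbol per library. Uqcr11 and Atp5h have the clearest gaps on the left, and 7 of the 21 genes overlap on the right.

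Peaks were wider in both KO than in both WT libraries at 16 of 86 genes (18.6%, against 14.8% of all genes) and narrower at 10 (11.6%, against 12.2%). These shares too were near the background. They rose to 45 of 86 genes wider without hemogen KO replicate 1 (background 46%) and 39 of 86 narrower without hemogen KO replicate 2 (43.5%). The largest widening among the 16 genes wider in both KO libraries was in Ndufaf5. It went from 1092 and 1069 bp in WT to 1242 and 1264 bp in KO, while its percentile was lower in KO. Ndufb9 was wider by 139 bp, Uqcr10 by 138 bp and Ndufs7 by 131 bp on average. Of the 13 genes with lower percentiles in KO, 4 were wider there and 0 narrower. Of the 8 with higher percentiles 3 were wider and 3 narrower. No share over all genes stands beside these small counts, so they are not read as a trait of respiratory chain genes.

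Genes of the pathway that the naming rule leaves out were also measured. Cycs, cytochrome c, was at 87.8, 86.7, 85.1 and 87.1, and Cyc1, the cytochrome c1 of complex III, at 94.6, 94.2, 92.4 and 92.8. Of 31 other assembly factors 30 had a boundary peak in all libraries, with median percentiles of 94.1, 91.8, 92.8 and 93.6; 1 was higher and 3 were lower in KO without overlap, against 12.6% and 11.8% of all genes. Tmem70, an ATP synthase assembly factor, was at 99.9, 99.4, 99.6 and 99.8. Of 12 regulators of nuclear respiratory genes or mitochondrial DNA 11 had one, with medians of 79.3, 77.9, 75.1 and 82.5, below those of the respiratory chain genes; 3 were higher and 1 lower, too few genes to read against the same background. Tfam, which packages mitochondrial DNA, was at 96.8, 97.5, 95 and 98.4.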

How the data were processed

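ATAC-seq peak lists of 4 libraries (2 WT, 2 hemogen KO) were used, 1 list per library and none pooled. The submitters' processing notes name MACS2 2.2.7.1, Picard 2.21.4, SAMtools 1.9 and Bowtie2 2.3.5. The tools' roles and settings, and the genome build, were not given in the sources used here. As for units, the columns deposited are the authors' score, the authors' fold enrichment (a ratio at the summit), and the authors' −log10 p and −log10 q per peak. Fold was ranked within a list only. Replicates follow the labels, although single peaks are named with different replicate numbers. Sequencing depth is not given by a peak list, and list lengths stand in its place. The values of 1 gene are not reported here, although it stays in the counts.

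Members and gene lists were chosen with earlier results of these data known. For each gene the boundary peak with the highest fold was kept (Python 3.11.15, pandas 2.3.3, NumPy 2.4.6, SciPy 1.17.1, Matplotlib 3.10.9). Gene ends came from a RefSeq table without strand or exons; strands and starts came from the promoter table, without an entry for 18 of the 96 genes. The build of the lists is not stated, so peaks carry the coordinates of their list, with the first base as 1. A difference between genotypes was counted where the 2 libraries of one lay outside those of the other. The calls were tested on simulated data. Named were genes with peaks in no or some libraries, the highest and lowest of each complex, the 10 with the largest gaps in percentile among all peaks (of the 14 without overlap on both scales), the tissue-restricted isoforms and the Sdh genes; the others named were chosen after their values were seen, for their role, a shared peak, a motif or their width.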

Additional observations from a re-analysis of the deposited data

How the results depend on the processing

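The count of 86 genes with a boundary peak in all libraries ranged from 74 to 89 over all settings run; 74 counts starts of the promoter table only, which 78 of the genes have. A 500 bp window gave 80, with Ndufa11, Ndufa13, Uqcrh, Atp5d and Atp5j among the genes lost, and a 2 kb window gave 88. Counting promoter-table starts beside the boundaries, or any peak in the gene, gave 89 each; these settings were chosen after seeing the data. Counts of genes without overlap between genotypes depended on the ranking. KO-higher genes numbered 15 of 84 with lists cut to the same 34181 peaks by fold (background 22.7%). They numbered 15 of 84 among the 20000 strongest peaks by q (21.5%), and 5 of 86 ranked by q (8.12%). KO-lower genes numbered 26 of 82 at a fold of at least 6 (25.1%) and 4 of 86 ranked by q (8.79%). In the lists of the same length 1 gene had peaks in both KO and neither WT library (background 0.425%).

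Leaving out 1 library at a time gave 86 to 87 genes with peaks in all remaining libraries, 0 to 1 in KO only, 10 to 40 higher and 15 to 53 lower in KO, and 21 to 45 wider and 10 to 39 narrower. The highest counts came without WT replicate 1 (40 of 86 higher, background 57.1%) and without WT replicate 2 (53 of 87 lower, 58.3%). For width they came without hemogen KO replicate 1 (45 of 86 wider, 46%) and without hemogen KO replicate 2 (39 of 86 narrower, 43.5%). The lone library of a genotype then stands for it. The 1 gene in KO only came without WT replicate 1 (background 1.96%). Of the 10 genes with the largest gaps, none changed direction in the 15 or 16 settings run for each, but many settings could not change it. These genes were chosen for no overlap on both scales, so leaving out 1 library or using the second scale could not reverse them. The other windows and the nearest peak left each value the same. Ranked by q, Uqcr11, Ndufa1, Ndufb7, Cox7a1, Ndufaf5 and Sdhd overlapped between genotypes. Their differences were -3.28, -1.26, -0.00924, -2.09, -0.855 and -0.645 points in this order, so that Ndufb7 was near 0, and the cause was not tested. No paired analysis was possible because the genotype counts come from no fitted test and nothing ties libraries with the same number to each other.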

Other observations

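The subunits of the respiratory chain that mitochondrial DNA encodes lie outside the chromosomes counted above. Each list held 3 peaks on the mitochondrial chromosome: over ND1, ND2 and both ribosomal RNA genes, over COX1, and over ND4, ND5, ND6 and CYTB. In hemogen KO replicate 1 the first also reached COX1. They were 654 to 5306 bp wide with folds of 1.38 to 2.26, and lay within the lowest 0.781% of each list by fold.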
